A study of Mus musculus with 12 samples.

Results

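The 10 genes described here are the glucocorticoid receptor gene Nr3c1 and 9 genes known to be induced through it: Fkbp5, Tsc22d3, Sgk1, Ddit4, Per1, Zbtb16, Klf9, Cebpd and Errfi1. They were taken by gene name from the 2 deposited tables of FPKM (fragments counted per kilobase of gene length and scaled to depth), 1 for NEC tissue and 1 for control tissue, and each was found among the 54532 genes of both. The tables hold small intestine of C57BL/6J mice in 12 RNA-seq libraries, 3 in each of 4 groups: CKO with necrotizing enterocolitis (NEC), flox with NEC, CKO control and flox control. By their labels, CKO mice have a knockout of Piezo1 (a cation channel opened by mechanical force) in the epithelial cells of the intestine, and the flox mice are labelled as floxed controls. NEC is an inflammatory necrosis of the newborn bowel. The sources used here do not give the Cre driver, the age of the mice, the way NEC was induced or how many mice gave each library, so every p-value below measures the spread between libraries.

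Glucocorticoids are the adrenal stress hormones, and the intestinal epithelium also makes them locally. The hormone enters the cell and binds the receptor, which is held by Hsp90 and its co-chaperones, and the receptor then moves to the nucleus and binds glucocorticoid response elements. Its targets include brakes on the receptor itself (Fkbp5) and mediators of its anti-inflammatory action (Tsc22d3). Others are kinases and growth regulators (Sgk1, Ddit4, Errfi1) and further regulators of transcription (Per1, Zbtb16, Klf9, Cebpd). In suckling rodents these hormones also promote the maturation of the gut lining around weaning. Several of these genes respond to other signals as well, Ddit4 to hypoxia and Per1 to the circadian clock.

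The number of reads behind each value was recovered from the FPKM steps, and the libraries held 13057724 to 16821130 reads each. Because the 2 tables were scaled separately, levels below are rescaled FPKM: recovered reads divided by size factors common to all 12 libraries and by gene length. Condition and table are the same split, so an effect of NEC and one of the table cannot be told apart. Piezo1 itself (chr8:122481698-122551329) was at 4.39 ± 1.17 rescaled FPKM in CKO NEC, 6.56 ± 0.27 in flox NEC, 1.26 ± 0.44 in CKO control and 1.34 ± 0.20 in flox control (SD, n = 3 each), and CKO did not differ from flox past the threshold in NEC (limma adjusted p = 0.84) or in control (limma adjusted p = 0.846). Mitochondrial genes took 3.47% to 4.52% of reads in NEC, 5.11% to 6.76% in CKO control and 11.1% to 14.3% in flox control. Epithelial markers summed to 1793 to 2324 rescaled FPKM in CKO NEC, 1752 to 2013 in flox NEC, 2423 to 3051 in CKO control and 1730 to 2429 in flox control, and no marker of the 11 cell types listed was at 0 in all 12 libraries.

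Promoter sequence was searched for 7 of the 10 genes, at start sites annotated by RefSeq. There were 16 promoters in all on GRCm38.p6, each running from 250 bases before the start to 50 after it. Nr3c1 was left out of the search by its chromosome, 18, an exclusion not applied to the shares of all promoters. For Cebpd and Zbtb16 no sequence was at hand. The 16 promoters were searched on both strands for the glucocorticoid response element and for motifs of the other inputs. The receptor binds as a dimer, so the full element is the arm TGTTCT with its reverse complement and 3 free bases before it. The full element stood in 3 of 32851 mouse promoters (0.00913%), and 1 of those belongs to Sgk1. Its core ACANNNTGT stood in 6.85% of promoters and a single arm in 19% of them, and a full element holds the core and an arm on each strand. In the 16 promoters the core was found in 2, both of Sgk1, and an arm in 4, of Sgk1 and Tsc22d3. The E-box CACGTG, the letters bound by the clock activators, stood in 7.15% of all promoters and in 3 of the 16, of Fkbp5, Per1 and Sgk1. The cAMP response element TGACGTCA (1.79% of promoters) was found in 1 promoter of Errfi1 and the TATA box TATAAA (13.6% of promoters) in 3, of Errfi1 and Sgk1, and none of these motifs was found in the promoters of Ddit4 and Klf9. The 4 sequences below are shown because they hold the receptor element, an arm of it or the E-box. They are the 250 bases before a start, written 5′ to 3′ on the gene's strand, with the matches in capitals. The Sgk1 sequence (chr10:21993640-21993889, plus strand) lies before the fifth of the 6 Sgk1 starts. Its full element begins 189 bases before the start, and its E-box, 246 bases before the start, overlaps a further arm that begins 242 bases before it. The Tsc22d3 sequence (chrX:140600523-140600772, minus strand) has an arm 185 bases before the start. In the sequences of Fkbp5 (chr17:28486150-28486399, minus strand) and Per1 (chr11:69098699-69098948, plus strand) the E-box begins 169 and 166 bases before the start. A match describes letters in this window and was not tested for binding.
Sgk1: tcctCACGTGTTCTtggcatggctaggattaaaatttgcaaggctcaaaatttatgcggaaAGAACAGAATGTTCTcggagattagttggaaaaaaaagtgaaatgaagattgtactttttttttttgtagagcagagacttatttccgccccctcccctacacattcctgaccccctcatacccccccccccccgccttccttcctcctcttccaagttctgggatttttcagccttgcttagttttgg
Tsc22d3: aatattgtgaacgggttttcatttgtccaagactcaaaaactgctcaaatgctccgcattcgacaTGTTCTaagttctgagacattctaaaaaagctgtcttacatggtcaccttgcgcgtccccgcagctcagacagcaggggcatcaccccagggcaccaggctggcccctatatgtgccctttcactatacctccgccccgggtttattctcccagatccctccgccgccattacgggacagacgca
Fkbp5: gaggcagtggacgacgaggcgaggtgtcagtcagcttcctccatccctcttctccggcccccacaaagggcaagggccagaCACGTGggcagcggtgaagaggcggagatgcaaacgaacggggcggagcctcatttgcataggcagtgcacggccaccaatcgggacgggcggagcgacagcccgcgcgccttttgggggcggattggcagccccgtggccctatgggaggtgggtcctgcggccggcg
Per1: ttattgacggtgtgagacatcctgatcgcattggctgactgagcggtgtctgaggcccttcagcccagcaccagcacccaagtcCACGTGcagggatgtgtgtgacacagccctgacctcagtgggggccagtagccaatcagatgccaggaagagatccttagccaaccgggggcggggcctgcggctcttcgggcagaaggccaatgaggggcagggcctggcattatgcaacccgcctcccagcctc

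Mean levels were higher in NEC than in control for 9 of the 10 genes in CKO tissue and for all 10 in flox tissue. In CKO tissue 4 of 10 rose in NEC (Fkbp5, Per1, Ddit4 and Zbtb16) and Tsc22d3 fell, where 20.1% of all 14688 genes tested rose and 22.9% fell. In flox tissue 8 of 10 rose in NEC (those 4 with Sgk1, Klf9, Nr3c1 and Errfi1) and none fell, where 27.1% of all genes rose and 26.4% fell. All NEC libraries lay above all controls for 5 of the 10 in CKO tissue, against 24.5% of all genes, and for 8 of the 10 in flox tissue, against 32.1%. The median change of the 10 genes was 0.66 in CKO tissue and 1.33 in flox tissue on the scale of log2(rescaled FPKM + 1), and that of all genes tested was -0.01 and 0.00. This scale understates the change of genes at low FPKM. Whether the changes differed between genotypes is a separate test, given further on. With libraries scaled to equal totals of reads, the median change of all genes was 0.24 in CKO tissue and 0.22 in flox tissue, and 35.2% of all genes rose and 12.5% fell in CKO tissue, and 37.7% rose and 18.4% fell in flox tissue. In CKO tissue 9 of the 10 genes passed under that scaling, where 47.6% of all genes did. Without the second CKO NEC library 3 of 10 passed in CKO tissue, as did 34.5% of all genes.

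**Figure D1:**
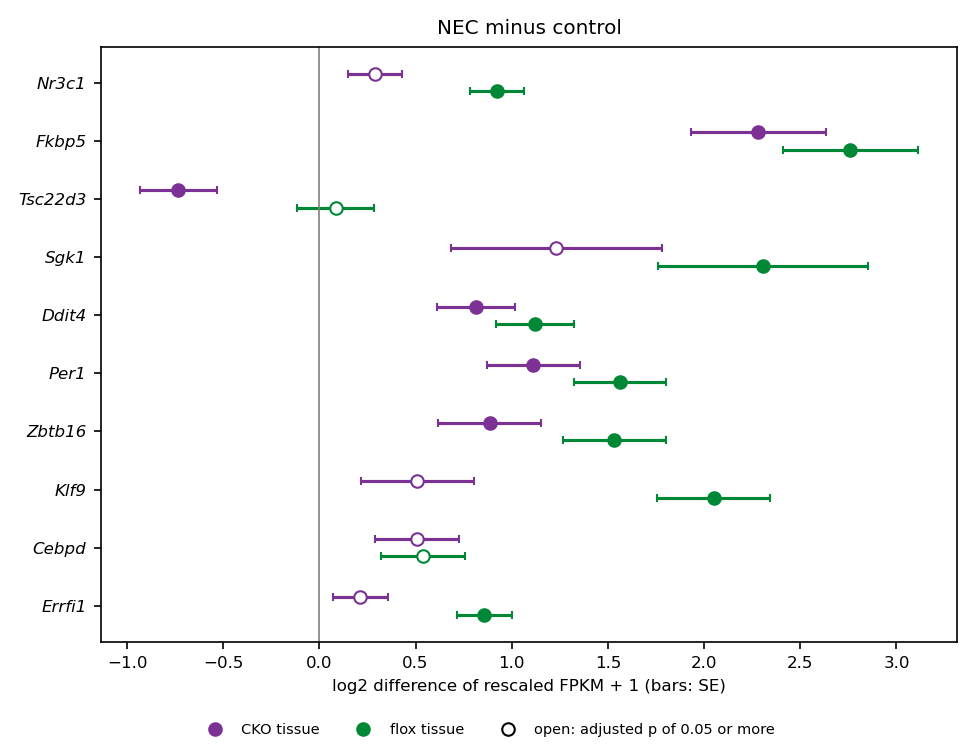
Change of each gene in NEC against control, as a log2 difference of rescaled FPKM + 1 (x axis; bars are the SE), for CKO tissue and flox tissue; filled points passed the limma test at an adjusted p under 0.05. Fkbp5 had the largest change of the 10 genes in both genotypes (2.28 in CKO, 2.76 in flox), and Tsc22d3 was the gene below 0 in CKO tissue (-0.73).

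Nr3c1 (chr18:39410545-39491301) encodes the receptor itself. Positions here are those of the deposited tables, nearly all identical to GENCODE M21 on GRCm38. Its rescaled FPKM was 20.4, 21.3 and 22.8 in CKO NEC, 25.3, 23.5 and 21.0 in flox NEC, 16.2, 18.8 and 17.3 in CKO control and 9.61, 11.4 and 14.9 in flox control. Every NEC library lay above every control library of the same genotype, and the lowest values were those of flox control. In CKO tissue the difference in NEC was 0.29 ± 0.14 log2 (SE) and did not pass (limma adjusted p = 0.122), though the groups did not overlap. It passed with equal totals of reads (0.60, limma adjusted p = 0.00252), quantile normalization (0.48, limma adjusted p = 0.0117) and deposited FPKM (0.43, limma adjusted p = 0.0302), with adjusted p from 0.00252 to 0.265 over the alternatives. In flox tissue Nr3c1 rose in NEC by 0.92 ± 0.14 log2 (limma adjusted p = 0.000287), a ratio of means of 1.95.

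Fkbp5 (chr17:28399094-28517527) encodes FKBP51, an Hsp90 co-chaperone that lowers the receptor's affinity for hormone and so closes a short feedback loop. It was at 15.8, 8.27 and 7.22 rescaled FPKM in CKO NEC and 9.60, 16.7 and 13.0 in flox NEC. In control tissue it was at 0.797, 0.594 and 2.89 in CKO mice and 0.731, 0.991 and 1.45 in flox mice. The NEC and control libraries were far apart in both genotypes, and the third CKO control library was the highest control. Fkbp5 rose in NEC by 2.28 ± 0.35 log2 in CKO tissue (limma adjusted p = 0.000581) and by 2.76 ± 0.35 log2 in flox tissue (limma adjusted p = 8.72e-05). The ratios of means, 7.31 in CKO and 12.4 in flox, were the largest of the 10 genes in CKO and in flox.

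Tsc22d3 (chrX:140539528-140600659) encodes GILZ, a leucine-zipper protein that carries part of the hormone's anti-inflammatory action. Its level was 15.4, 13.0 and 17.5 rescaled FPKM in CKO NEC, 14.7, 22.2 and 17.5 in flox NEC, 23.2, 21.0 and 35.7 in CKO control and 15.3, 18.2 and 17.0 in flox control. The CKO control libraries stood above all CKO NEC and all flox control libraries. In CKO tissue Tsc22d3 fell by 0.73 log2 in NEC (SE 0.20; limma adjusted p = 0.0125), to 0.575 of the control mean. That call was lost without the second CKO NEC library (-0.63, limma adjusted p = 0.0504) and with equal totals of reads (-0.42, limma adjusted p = 0.0669), and over all alternatives the adjusted p ran from 0.00841 to 0.0669. In flox tissue the groups overlapped and the difference was 0.08 ± 0.20 log2 (limma adjusted p = 0.744), which turned to -0.06 (limma adjusted p = 0.823, range 0.128 to 0.945 over the alternatives) without the second flox NEC library.

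Sgk1 (chr10:21882184-21999903), the serum- and glucocorticoid-regulated kinase, acts on epithelial sodium channels and exchangers and had the highest mean of the 10 genes in every group. In the first and second flox control libraries Tsc22d3 was higher, at 15.3 and 18.2 against 14.3 and 16.6 for Sgk1. Sgk1 was at 92.0, 96.7 and 123 rescaled FPKM in CKO NEC and 112, 137 and 107 in flox NEC. In control tissue it was at 25.4, 27.4 and 115 in CKO mice and 14.3, 16.6 and 50.8 in flox mice. The third control library of each genotype thus stood well above the other two, and in CKO it lay inside the NEC range. In CKO tissue the groups overlapped and the difference of 1.23 ± 0.55 log2 did not pass (limma adjusted p = 0.0905). Without the third CKO control library it was 1.93 and passed (limma adjusted p = 0.00613), as it did with quantile normalization (1.59) and equal totals of reads (1.55), and the adjusted p ran from 0.000105 to 0.268 over the alternatives. The lowest of these came without the third control library of both genotypes, a setting added after the data were seen. In flox tissue Sgk1 rose in NEC by 2.31 ± 0.55 log2 (limma adjusted p = 0.00436), a ratio of means of 4.36.

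Ddit4 (chr10:59949669-59951834) encodes REDD1, a brake on the growth kinase complex mTORC1 that hypoxia and DNA damage also induce. It was at 23.3, 15.4 and 16.3 rescaled FPKM in CKO NEC, 17.0, 22.7 and 20.3 in flox NEC, 13.0, 9.28 and 7.81 in CKO control and 8.93, 9.90 and 7.17 in flox control. No NEC library of a genotype overlapped its controls. The rise in NEC was 0.81 ± 0.20 log2 in CKO tissue (limma adjusted p = 0.00797) and 1.12 ± 0.20 log2 in flox tissue (limma adjusted p = 0.000822).

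Errfi1 (chr4:150853919-150868892) encodes MIG6, a feedback inhibitor of the EGF receptor. Its rescaled FPKM was 17.1, 11.6 and 12.9 in CKO NEC, 14.9, 19.2 and 17.3 in flox NEC, 10.5, 13.0 and 11.8 in CKO control and 8.73, 8.97 and 9.16 in flox control. The flox control libraries were close together and below all 9 other libraries. In CKO tissue the groups overlapped and the difference was 0.21 ± 0.14 log2 (limma adjusted p = 0.252). It passed there with equal totals of reads (0.51, limma adjusted p = 0.0147) and was 0.06 without the first CKO NEC library, with adjusted p from 0.0147 to 0.741 over the alternatives. Errfi1 rose in NEC by 0.86 ± 0.14 log2 in flox tissue (limma adjusted p = 0.000487).

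Per1 (chr11:69095217-69109960), a repressor in the circadian clock, carries an E-box in the promoter printed above. It was at 18.9, 18.8 and 15.7 rescaled FPKM in CKO NEC, 19.0, 23.3 and 28.9 in flox NEC, 6.46, 5.70 and 12.1 in CKO control and 6.73, 6.27 and 9.01 in flox control. The groups did not overlap by condition in either genotype. Per1 rose in NEC by 1.11 ± 0.24 log2 in CKO tissue (limma adjusted p = 0.00369) and by 1.56 ± 0.24 log2 in flox tissue (limma adjusted p = 0.00028).

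Zbtb16 (chr9:48654297-48836222) encodes PLZF, a zinc-finger repressor that some innate-like lymphocytes also need, and had the lowest mean of the 10 genes in all 4 groups. It was at 2.10, 1.41 and 0.542 rescaled FPKM in CKO NEC and 2.30, 2.90 and 3.02 in flox NEC, from 202, 127 and 43 reads and from 181, 240 and 241 reads. In control tissue it was at 0.0649, 0.0673 and 0.611 in CKO and 0.205, 0.079 and 0.633 in flox, from 5, 5 and 45 reads and from 16, 6 and 47 reads. The flox groups were apart, while in CKO the third NEC library lay below the third control library. Zbtb16 rose in NEC by 0.88 ± 0.27 log2 in CKO tissue (limma adjusted p = 0.0209) and by 1.53 ± 0.27 log2 in flox tissue (limma adjusted p = 0.000656). With a pseudocount of 0.1 in place of 1 these changes were 2.26 in CKO and 3.04 in flox, and in limma-voom on the recovered reads 3.04 in CKO and 3.6 in flox. The call in CKO was lost without the first (0.78, limma adjusted p = 0.0645) or second (0.79, limma adjusted p = 0.0671) control library. It was also lost without the first (0.66, limma adjusted p = 0.0877) or second (0.84, limma adjusted p = 0.0618) NEC library, and with no filter on low values (limma adjusted p = 0.0507); over all alternatives the adjusted p ran from 0.00425 to 0.0877.

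Klf9 (chr19:23141226-23166911), a Krüppel-like transcription factor, was at 16.7, 15.0 and 15.0 rescaled FPKM in CKO NEC and 21.4, 19.9 and 22.5 in flox NEC. In control tissue it was at 10.3, 9.53 and 12.3 in CKO and 2.02, 4.67 and 8.07 in flox. All 4 groups were apart from each other, in the order flox NEC, CKO NEC, CKO control and flox control. In CKO tissue the difference was 0.51 ± 0.29 log2 and did not pass (limma adjusted p = 0.185), though it did with equal totals of reads (0.81, limma adjusted p = 0.0307, range 0.0307 to 0.342 over the alternatives). Klf9 rose in NEC in flox tissue by 2.05 ± 0.29 log2 (limma adjusted p = 0.000183), a ratio of means of 4.33.

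Cebpd (chr16:15887286-15891031) encodes a C/EBP transcription factor of the acute-phase response. It was at 4.81, 3.15 and 3.61 rescaled FPKM in CKO NEC, 3.20, 4.79 and 4.72 in flox NEC, 2.09, 1.94 and 3.26 in CKO control and 2.21, 1.97 and 3.76 in flox control. Libraries of the conditions overlapped in both genotypes, where the third control library was the highest control. The differences of 0.51 ± 0.22 log2 in CKO tissue (limma adjusted p = 0.0805) and 0.54 ± 0.22 log2 in flox tissue (limma adjusted p = 0.0561) did not pass. Cebpd passed in CKO tissue without the third control library (0.67, limma adjusted p = 0.0397, range 0.0104 to 0.25 over the alternatives). It also passed there on deposited FPKM (0.62, limma adjusted p = 0.0386) and with equal totals of reads (0.75, limma adjusted p = 0.0104). In flox tissue it passed without the third control library (0.75, limma adjusted p = 0.0127) or the first NEC library (0.69, limma adjusted p = 0.0342), with a range of 0.00672 to 0.179 over the alternatives. Cebpd passed there too on deposited FPKM (limma adjusted p = 0.0232) and with equal totals of reads (limma adjusted p = 0.00827). The same held in limma-voom (limma-voom adjusted p = 0.047) and with the replicate number as a block (limma adjusted p = 0.0414).

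**Figure D2:**
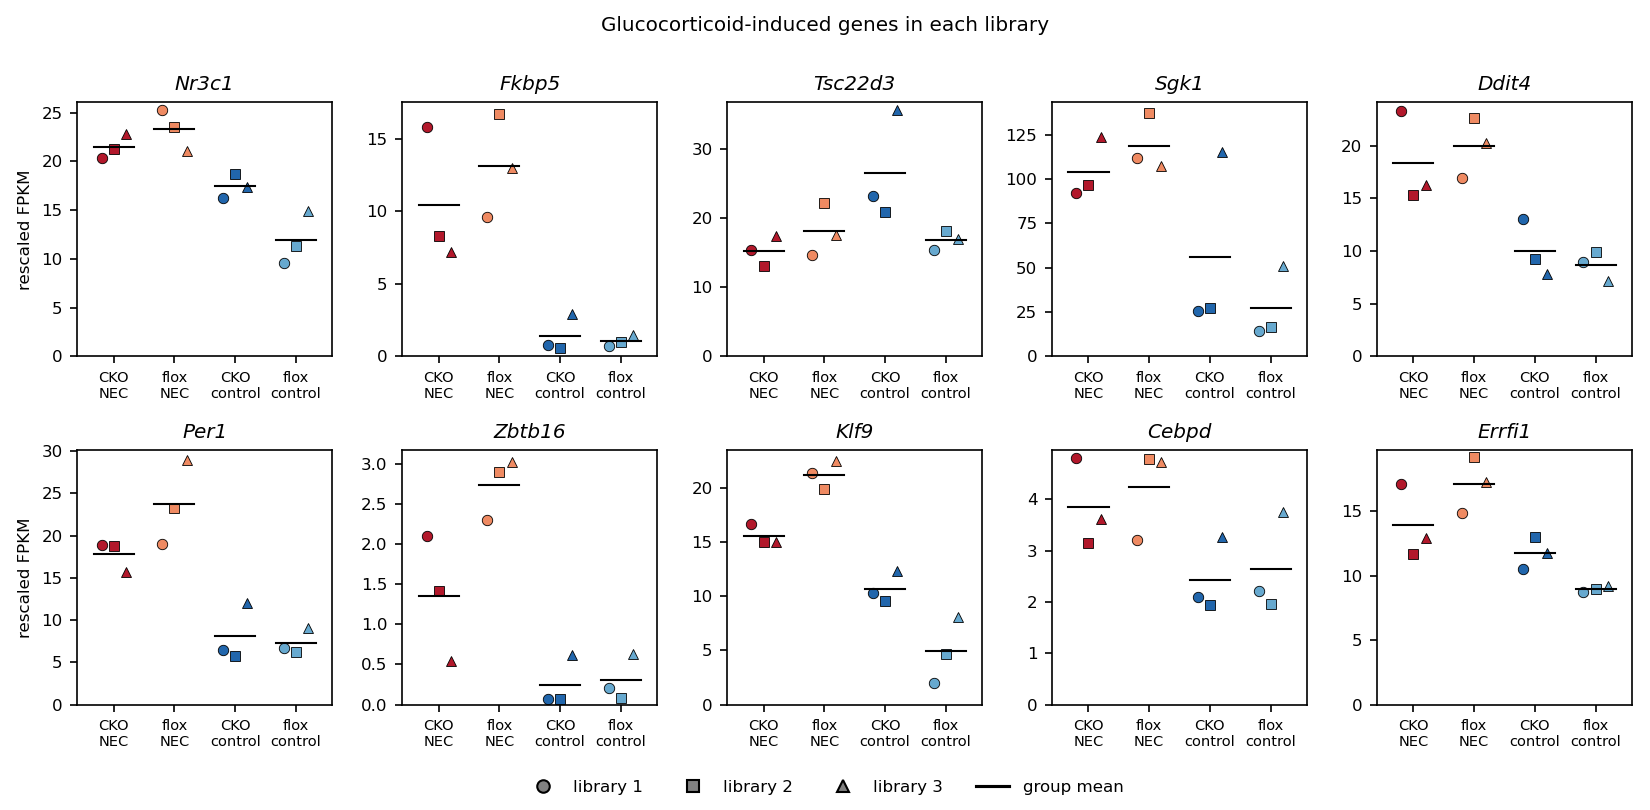
Rescaled FPKM (y axis, linear, from 0) of each gene in the 12 libraries, by group, with symbols for the library number and a line at the group mean. Sgk1 in control tissue shows the third library of each genotype (115 in CKO, 50.8 in flox) far above the other two, and the flox control libraries hold the lowest Klf9 values (2.02 to 8.07).

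Of the 5 epithelial markers, 1 rose and 1 fell in NEC in CKO tissue, and 2 rose and 1 fell in flox tissue. Among all genes 20.1% rose and 22.9% fell in CKO tissue, and 27.1% rose and 26.4% fell in flox tissue. Markers of other cell types also differed between NEC and control. Those of smooth muscle summed to 523 to 2049 rescaled FPKM in CKO NEC and 1813 to 2855 in flox NEC, against 190 to 606 in CKO control and 692 to 885 in flox control, and 2 of 6 rose in each genotype while 1 fell in flox. Fibroblast markers summed to 241 to 405 in CKO NEC and 370 to 503 in flox NEC, against 48.3 to 140 in CKO control and 129 to 247 in flox control, and 5 of 5 rose in CKO and 4 of 5 in flox tissue. Macrophage and monocyte markers had sums of 24.9 to 35.6 in CKO NEC and 34.0 to 39.6 in flox NEC, against 84.3 to 101 in CKO control and 81.5 to 107 in flox control, and 2 of the 5 tested fell in each genotype while 1 rose in flox. Endothelial markers summed to 26.1 to 31.2 in CKO NEC and 31.1 to 36.6 in flox NEC, against 12.2 to 17.2 in CKO control and 11.5 to 21.0 in flox control, and 3 of 3 rose in each genotype. Markers of T cells and innate lymphoid cells, among which are cells known to use Zbtb16, summed to 25.9 to 36.4 in CKO NEC and 26.5 to 30.0 in flox NEC, against 58.9 to 63.0 in CKO control and 49.8 to 59.9 in flox control, and 1 of the 2 tested fell in each genotype. B cell markers fell for 3 of 3 in CKO and 2 of 3 in flox tissue, and of the markers tested for enteric neurons and glia 1 of 5, and for pancreas 2 of 3, fell in each genotype. The single neutrophil marker tested rose in flox and the single mast cell marker in CKO tissue. The part of these markers in the changes above was not tested, and in bulk tissue fewer cells of a type and less RNA per cell cannot be told apart. The third CKO NEC library had the lowest smooth muscle sum of the NEC libraries. It also had the lowest Zbtb16, Fkbp5 and Per1 of its group and the highest Nr3c1, Sgk1 and Tsc22d3.

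The next question was whether the knockout changed these genes within NEC. None of the 10 passed the limma test between CKO NEC and flox NEC, where 0 of 13673 genes passed (0%); 3 of the 10 had an unadjusted p under 0.05, as had 4.38% of all genes, and limma-voom called 0 of the 10. All 10 differences were below 0, with a median of -0.27 log2 on the deposited FPKM, against 0.01 over all genes. For 3 of the 10, all CKO libraries lay below all flox libraries, which was so for 5.61% of all genes. Klf9 averaged 16.8 ± 1.1 deposited FPKM in CKO NEC and 23.1 ± 1.4 in flox NEC (SD, n = 3 each), a difference of -0.44 ± 0.10 log2 (SE; limma adjusted p = 0.84). Zbtb16 differed by -0.75 ± 0.26 log2 and Per1 by -0.39 ± 0.17 log2 without overlap (limma adjusted p = 0.84 for both). In the other 7 genes the groups overlapped, with differences from -0.36 log2 for Fkbp5 to -0.12 log2 for Cebpd.

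In control tissue the differences between genotypes mostly lay on the other side of 0. Fkbp5 and Zbtb16 were too low to be tested there, and none of the other 8 genes passed the limma test, where 1 of 13300 genes did (0.00752%). Among them 4 had an unadjusted p under 0.05, as had 28.9% of all genes, and limma-voom called 0 of them. Differences were above 0 for 7 of 8 and had a median of 0.44 log2, against 0.04 over all genes. Of the 8, 4 were higher in all CKO control than in all flox control libraries, which was so for 21.9% of all genes. Klf9 averaged 10.4 ± 1.4 deposited FPKM in CKO control and 4.79 ± 2.95 in flox control, a difference of 1.11 ± 0.36 log2 (limma adjusted p = 0.106). Nr3c1 averaged 17.0 ± 1.3 in CKO control and 11.6 ± 2.6 in flox control (0.53 ± 0.17 log2, limma adjusted p = 0.0975). Tsc22d3 differed by 0.59 ± 0.20 log2 (limma adjusted p = 0.112) and Errfi1 by 0.35 ± 0.11 log2 (limma adjusted p = 0.104), both without overlap. Sgk1 differed by 0.88 ± 0.67 log2 with overlap (limma adjusted p = 0.418).

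The control comparison turned on few libraries. Without the third flox control library Klf9 (1.49, limma adjusted p = 0.0439) and Nr3c1 (0.68, limma adjusted p = 0.0459) passed, and 830 genes passed in all. In the alternatives the adjusted p ran from 0.0314 to 0.24 for Klf9 and from 0.0337 to 0.262 for Nr3c1. Per1 turned from 0.07 log2 to -0.22 without the third CKO control library and to -0.02 without the second flox control library, and Ddit4 from 0.17 to -0.01 without the first CKO control library. Cebpd, at -0.08, turned to 0.13 without the third flox control library and to 0.02 without the second CKO control library. The genotypes also differed in the share of mitochondrial reads in control tissue, given above, whose part was not tested.

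**Figure D3:**
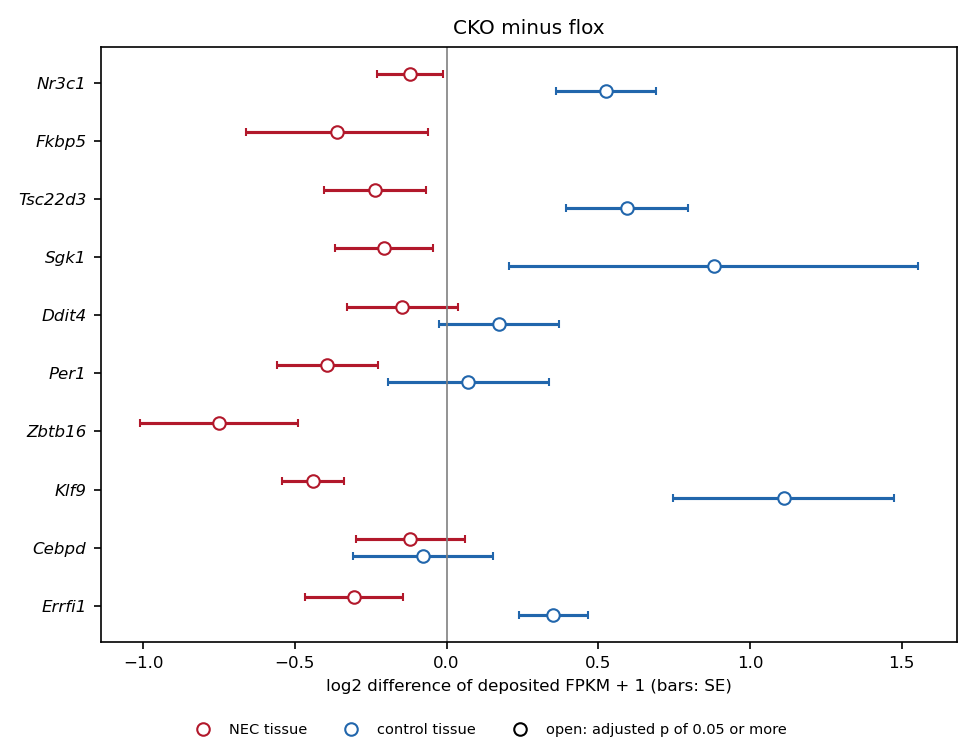
Difference between CKO and flox, as a log2 difference of deposited FPKM + 1 (x axis; bars are the SE), for NEC tissue and control tissue; open points did not pass the limma test at an adjusted p of 0.05. All 10 points of NEC tissue lie below 0, down to -0.75 for Zbtb16, and 7 of the 8 points of control tissue lie above it, up to 1.11 for Klf9.

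The interaction, the change in NEC in CKO tissue minus that in flox tissue, was tested in 1 fit over all 12 libraries. It was below 0 for all 10 genes, with a median of -0.64 log2 against -0.01 over all genes, and none of the 10 passed, where 0.776% of genes did; 4 of the 10 had an unadjusted p under 0.05, as had 20.7% of genes, and limma-voom called 0. The comparisons share libraries, so these signs are not separate from those above. The interaction was -1.54 ± 0.42 log2 for Klf9 (limma adjusted p = 0.0815), -0.82 ± 0.28 for Tsc22d3 (limma adjusted p = 0.137) and -0.64 ± 0.20 for Errfi1 (limma adjusted p = 0.109). It was -0.63 ± 0.20 for Nr3c1 (limma adjusted p = 0.11) and -1.07 ± 0.77 for Sgk1 (limma adjusted p = 0.472). Without the third flox control library it was -1.92 for Klf9 (limma adjusted p = 0.0327, range 0.0327 to 0.168 over the alternatives) and -0.79 for Nr3c1 (limma adjusted p = 0.0383, range 0.0383 to 0.234), and both passed. For Cebpd it was -0.03 and changed sign in several alternatives. The changes in NEC of the 10 genes are therefore not shown to differ between CKO and flox tissue.

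A pattern among the control libraries crossed the genotypes. The third library was the highest of its 3 for 7 of the 10 genes in CKO control, against 37.6% of all genes tested, and for 8 of the 10 in flox control, against 41.2%. In both genotypes it was the highest for Fkbp5, Sgk1, Per1, Zbtb16, Klf9 and Cebpd, 6 of the 10, and so it was for 22.4% of all genes. Set against the mean of the other two libraries, the third was 9.24 times as high for Zbtb16 in CKO control and 4.45 times in flox control, and 4.37 and 3.29 times as high for Sgk1. Fkbp5 stood at 4.15 times in CKO control and 1.68 times in flox control, and Per1 at 1.99 and 1.39 times. Ddit4 was lower in it, at 0.70 and 0.762 times, and Errfi1 was level, at 1.00 and 1.03 times.

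Of the 28 other known targets tested, 18 were highest in the third library in CKO control, 19 in flox control and 15 in both, while 4 were lowest in it in each genotype. Those named next were chosen after their values were seen. The metallothionein Mt2 stood at 3.39 times the mean of the other two libraries in the third CKO control library and 1.79 times in the third flox control library. Pdk4, a kinase that switches off pyruvate dehydrogenase, stood at 3.39 and 3.78 times and the cell-cycle inhibitor Cdkn1a at 2.50 and 2.61 times. Lpin1, a phosphatidate phosphatase, was lowest in the third library of both genotypes, at 0.672 and 0.839 times, and Pck1 stood at 1.22 times in CKO control and 0.441 times in flox control. Cyp11a1, which makes the first step of steroid synthesis, was low in both, at 0.132 times in CKO control and 0.159 times in flox control. Epithelial markers were also highest in the third library, at 3051 rescaled FPKM against 2424 and 2423 in CKO control and 2429 against 1730 and 1787 in flox control, and their part was not tested. Nothing in the labels says what the third libraries share. Without both of them Sgk1 rose in NEC in CKO tissue by 1.93 log2 (limma adjusted p = 0.000105), and 3 of the 8 genes (Nr3c1, Sgk1 and Klf9) passed between CKO control and flox control, where 1345 of all genes (10.6%) passed in place of 1. This setting was added after the data were seen.

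**Figure D4:**
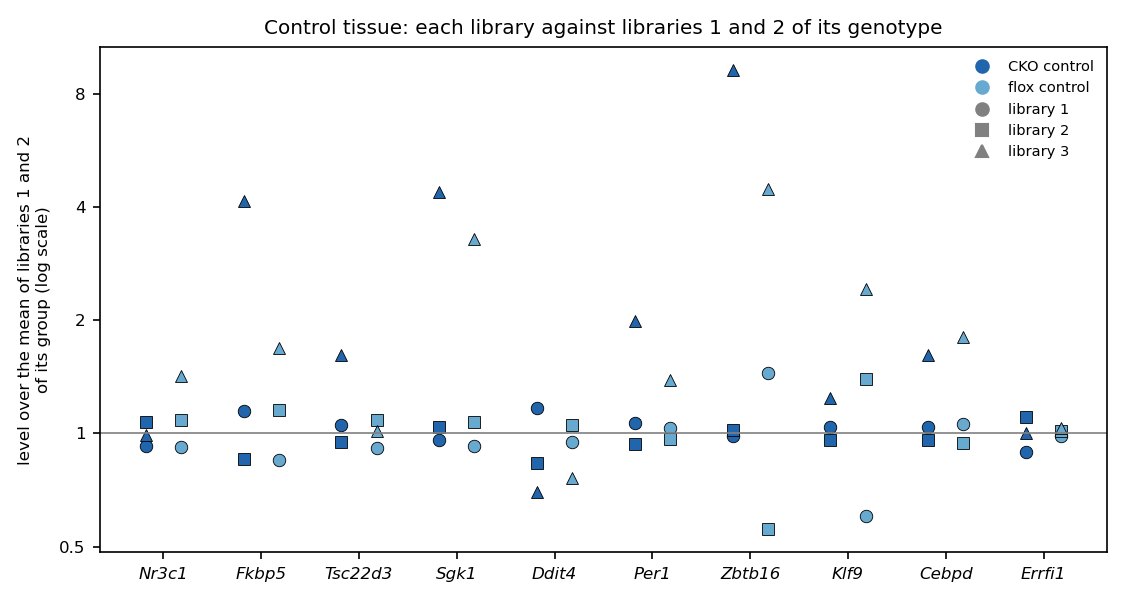
Level of each gene in each control library divided by the mean of libraries 1 and 2 of its genotype (y axis, log scale; the line marks 1), for CKO control and flox control. The triangles of library 3 stand highest for Zbtb16 (9.24 in CKO, 4.45 in flox) and Sgk1 (4.37 in CKO, 3.29 in flox) and below 1 for Ddit4.

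Ranked by mean rescaled FPKM, which is per length, Sgk1 came first and Zbtb16 last in all 4 groups. In NEC Sgk1, at 104 ± 17 in CKO and 119 ± 16 in flox (SD, n = 3 each), was clear of the next gene. Behind it Nr3c1, Ddit4, Per1, Klf9, Tsc22d3, Errfi1 and Fkbp5 each overlapped their neighbour in the order, with means of 10.4 to 21.5 in CKO NEC and 13.1 to 23.7 in flox NEC. Cebpd and Zbtb16 were apart below them. In control tissue Tsc22d3 came second, at 26.6 ± 7.9 in CKO and 16.8 ± 1.4 in flox, overlapping Sgk1 in both, while Fkbp5 came ninth. Within CKO NEC the first library was the highest for 7 of the 10 genes, against 33.8% of all genes, and within flox NEC the second was the highest for 6, against 34.7%.

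The genes whose pattern over the 12 libraries was most like each gene's were found by the root mean square difference of centred log2 values. The search was among 14688 genes, with predicted gene models left out of the ranking. Nearest to Fkbp5 were Gdpd1 (0.29 log2), Slc35g1 (0.35) and Scin (0.37). Nearest to Sgk1 were Abcb1a (0.31), an efflux transporter, Slc9a2 (0.32), a sodium-proton exchanger, and Ifit1bl1 (0.36). The nearest to Tsc22d3 were Tmem135 (0.16), P4hb (0.17) and Yif1a (0.17). Among the 10 themselves the closest pairs were Nr3c1 with Errfi1 (0.22) and Per1 with Zbtb16 (0.24).

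The supply and sensing of the hormone was followed through 11 genes of receptors and enzymes, of which 8 were tested in NEC against control. In CKO tissue, where 20.1% of all genes rose and 22.9% fell, 1 rose and 3 fell. In flox tissue, where 27.1% of all genes rose and 26.4% fell, 4 rose, Nr3c1 among them, and 3 fell. The 3 that fell were the same in both, Cyp11a1, Nr0b2 and H6pd (an enzyme that supplies the cofactor of Hsd11b1), the last named after its values were seen. The call of H6pd in flox (-0.64, limma adjusted p = 0.0318) was lost with no filter, quantile normalization (-0.35), deposited FPKM (-0.48) and equal totals of reads (-0.38), without the third control library (-0.38) and without the first NEC library (-0.54) or the third (-0.64), with adjusted p from 0.0107 to 0.128 over the alternatives. Hsd11b2, which inactivates the hormone, was at 3.02 ± 0.28 rescaled FPKM in CKO NEC against 0.396 ± 0.027 in CKO control, and at 3.15 ± 1.35 in flox NEC against 0.466 ± 0.251 in flox control. It rose by 1.52 ± 0.21 log2 in CKO tissue (limma adjusted p = 0.000301) and 1.47 ± 0.21 log2 in flox tissue (limma adjusted p = 0.000163). Hsd11b1, which regenerates the active hormone, was too low to be tested, at 0.845 ± 0.285 in CKO NEC, 0.809 ± 0.330 in flox NEC, 0.139 ± 0.055 in CKO control and 0.271 ± 0.246 in flox control. The mineralocorticoid receptor gene Nr3c2 differed in CKO tissue by 0.18 ± 0.22 log2 (limma adjusted p = 0.542) and rose in flox tissue (0.69 ± 0.22 log2, limma adjusted p = 0.0219). Its call in flox was lost with no filter and without the first (0.55, limma adjusted p = 0.0865) or second (0.67, limma adjusted p = 0.0544) control library or the third NEC library (0.61, limma adjusted p = 0.0749), with a range of 0.000878 to 0.0865 over the alternatives.

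Cyp11a1 was at 0.103, 0.367 and 0.402 rescaled FPKM in CKO NEC and 0.181, 0.212 and 0.138 in flox NEC, against 5.75, 7.40 and 0.866 in CKO control and 6.21, 3.29 and 0.755 in flox control. It fell by 1.88 log2 in CKO tissue (SE 0.55; limma adjusted p = 0.0179) and by 1.69 log2 in flox tissue (SE 0.55; limma adjusted p = 0.0232). Both calls were lost with no filter. The call in CKO was also lost without the first (-1.63) or second (-1.47) control library or the first NEC library (-1.77), with adjusted p from 0.000122 to 0.0707 over the alternatives. The call in flox was lost without the first (-1.22) or second (-1.60) control library and without any 1 NEC library (-1.71 to -1.66), with adjusted p from 7.93e-05 to 0.0983. Cyp11b1, which makes the last step of corticosterone synthesis, was below the filter, at 0.0928 or less in every library. The orphan receptor gene Nr0b2 was at 0.0888 ± 0.0336 in CKO NEC against 3.59 ± 0.996 in CKO control, and at 0.0188 ± 0.0326 in flox NEC against 4.85 ± 2.0 in flox control. It fell by 2.05 log2 in CKO tissue (limma adjusted p = 0.000121) and by 2.46 log2 in flox tissue (limma adjusted p = 1.61e-05).

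Partners of the receptor rose more often than they fell. Of 14 chaperones and coregulators, 7 rose and 1 fell in CKO tissue, where 20.1% of all genes rose and 22.9% fell. In flox tissue 10 of the 14 rose and 2 fell, where 27.1% of all genes rose and 26.4% fell. The coactivator Ncoa1 rose by 0.81 ± 0.10 log2 in CKO tissue (limma adjusted p = 0.000236) and 1.23 ± 0.10 log2 in flox tissue (limma adjusted p = 1.01e-05). Ncoa2, a second coactivator, rose by 0.57 ± 0.10 log2 in CKO tissue (limma adjusted p = 0.0011) and 1.05 ± 0.10 log2 in flox tissue (limma adjusted p = 1.59e-05). The corepressor Ncor1 differed in CKO tissue by 0.24 ± 0.10 log2 (limma adjusted p = 0.0766) and rose in flox tissue by 0.82 ± 0.10 log2 (limma adjusted p = 6.72e-05).

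Other known targets of the receptor moved in both directions, as did all genes tested. Of 28 tested, 6 rose and 8 fell in CKO tissue, where 20.1% of all genes rose and 22.9% fell. In flox tissue 7 rose and 6 fell, where 27.1% of all genes rose and 26.4% fell. The median changes of the 28 were -0.11 log2 in CKO tissue and 0.11 log2 in flox tissue. Pik3r1, a regulatory subunit of PI3-kinase, rose by 1.80 ± 0.14 log2 in CKO tissue (limma adjusted p = 2.48e-05) and 1.99 ± 0.14 log2 in flox tissue (limma adjusted p = 5.16e-06). Pck1, the classical target in gluconeogenesis, was at 28.9 ± 12 rescaled FPKM in CKO NEC against 302 ± 66 in CKO control, and at 21.6 ± 11.7 in flox NEC against 250.5 ± 112 in flox control. Its changes were -3.39 ± 0.44 log2 in CKO tissue (limma adjusted p = 0.000235) and -3.50 ± 0.44 log2 in flox tissue (limma adjusted p = 7.55e-05). The repressor Bcl6 fell by 1.09 log2 in CKO tissue (limma adjusted p = 0.00024) and by 1.16 log2 in flox tissue (limma adjusted p = 6.59e-05).

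Around Sgk1, 3 of 8 genes of its family and of sodium transport rose and 2 fell in CKO tissue, and 4 rose and 1 fell in flox tissue. Of all genes, 20.1% rose and 22.9% fell in CKO tissue and 27.1% rose and 26.4% fell in flox tissue. Scnn1a, the subunit of the sodium channel that Sgk1 acts on, fell by 1.46 log2 in CKO tissue (limma adjusted p = 0.000247) and by 1.69 log2 in flox tissue (limma adjusted p = 4.03e-05). Pdpk1, the kinase that activates Sgk1, differed in CKO tissue by 0.27 ± 0.11 log2 (limma adjusted p = 0.0681) and rose in flox tissue by 1.13 ± 0.11 log2 (limma adjusted p = 1.85e-05). Its interaction of -0.86 ± 0.16 log2 passed (limma adjusted p = 0.0485), the single one among 111 genes of the lists. That call held on leaving out the third control library of either genotype and was lost on leaving out any of the other 10 libraries (-0.92 to -0.77), with no filter (limma adjusted p = 0.0718) and with no variance trend (limma adjusted p = 0.0599), with adjusted p from 0.0302 to 0.121 over the alternatives. Among all genes 0.776% passed in the interaction. For limma-voom the calls were 2 of the 111 list genes and 1.1% of all genes.

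Most of the lists of other inputs to the 10 genes held genes that rose and genes that fell. So did all genes tested, of which 20.1% rose and 22.9% fell in CKO tissue and 27.1% rose and 26.4% fell in flox tissue. Of 16 clock genes, 5 rose and 3 fell in CKO tissue and 7 rose and 2 fell in flox tissue; Nr1d2 rose by 1.41 ± 0.13 log2 in CKO and 1.27 ± 0.13 log2 in flox tissue (limma adjusted p = 4.62e-05 and 2.55e-05). Of 11 hypoxia genes, 2 rose and 4 fell in CKO tissue and 4 rose and 3 fell in flox tissue, and Ankrd37 fell by 1.77 log2 in CKO and by 2.04 log2 in flox tissue (limma adjusted p = 4.07e-05 and 7.33e-06). Of 10 genes of the integrated stress response, 2 rose and 2 fell in CKO tissue and 3 rose and 3 fell in flox tissue. Its factor Ddit3, known as CHOP, fell by 1.67 log2 in CKO and by 2.16 log2 in flox tissue (limma adjusted p = 0.000474 and 4.47e-05). Of 7 C/EBP and acute-phase genes, 1 rose and 4 fell in CKO tissue and 2 rose and 4 fell in flox tissue, and Cebpb fell by 0.69 log2 in CKO and by 1.09 log2 in flox tissue (limma adjusted p = 0.0075 and 0.000313). The call of Cebpb in CKO was lost with equal totals (-0.38, limma adjusted p = 0.133) and quantile normalization (-0.48, limma adjusted p = 0.0629), its adjusted p running from 0.00112 to 0.133. Of 11 genes around the EGF receptor, 5 rose in CKO tissue and 6 in flox tissue and 0 fell in either; the ligand Ereg rose by 1.23 ± 0.24 log2 in CKO and 1.76 ± 0.24 log2 in flox tissue (limma adjusted p = 0.00212 and 0.00013). Between CKO and flox, limma called 0 of the 108 list genes tested in NEC (1 with an unadjusted p under 0.05, 0 in limma-voom) and 0 of 104 in control (27 with an unadjusted p under 0.05, 7 in limma-voom). Of all genes, 4.38% had an unadjusted p under 0.05 in NEC and 28.9% in control, and limma-voom called 0% and 5.52%.

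**Figure D5:**
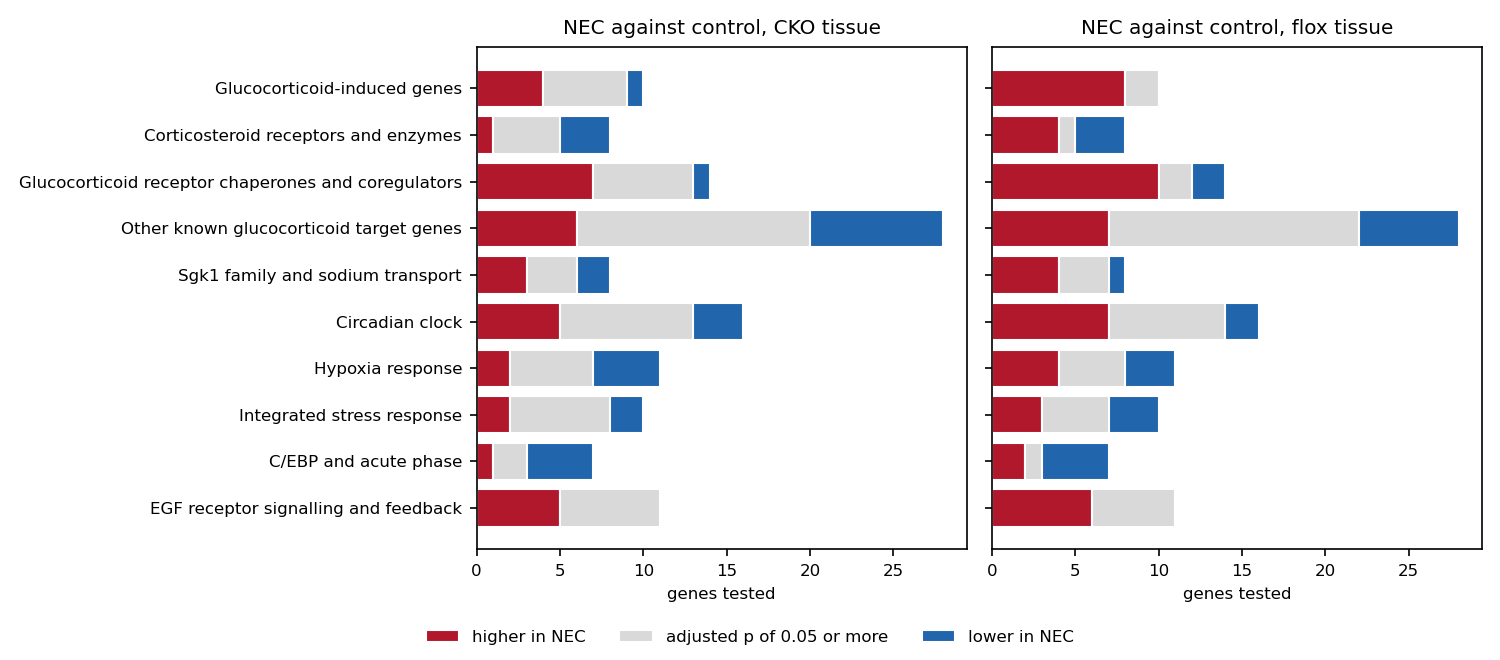
Number of genes tested (x axis) in the set of 10 and in 9 lists of related genes that rose, did not pass or fell in NEC against control, in CKO tissue and in flox tissue. The 10 genes hold 4 risen and 1 fallen in CKO and 8 risen in flox tissue. The 28 other targets hold 6 risen and 8 fallen in CKO and 7 risen and 6 fallen in flox tissue. Of all genes tested, 20.1% rose and 22.9% fell in CKO tissue and 27.1% rose and 26.4% fell in flox tissue.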

How the data were processed

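Per the labels' protocols, Trizol was used on small intestine and the NEBNext Ultra II kit for libraries. The authors deposited FPKM in 2 tables of 6 libraries, with gene lengths; the sources used here do not give the aligner, counter or genome build. Coordinates of 98.3% of matched genes were identical to GENCODE M21 (GRCm38). FPKM times length fell on whole multiples of 1 step per library for 100% of values (tolerance 0.05), which gave the reads. Whether these are reads or fragments is not given. Rescaled FPKM used median-of-ratios factors over 17568 genes; deposited NEC values sat 0.11 log2 above that shared scale and deposited control values 0.04 below it.

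Genotypes were compared on deposited FPKM within a table, and NEC with control, and the interaction, on rescaled FPKM in a 4-group fit. Tests were limma 3.58.1 (R 4.3.3) with a variance trend on log2(FPKM + 1) for genes at 1 or more in at least 3 libraries, Benjamini-Hochberg adjusted over all genes at 0.05. The tests were checked on simulated data. Python 3.11.15, numpy 2.4.6, pandas 2.3.3 and matplotlib 3.10.9 did the rest.

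The members and lists were chosen with earlier results of these data known. Named genes are the 10 members, Piezo1, Nr3c2, Hsd11b1, Hsd11b2, Cyp11a1 and Cyp11b1. From each list the rule adds up to 3 genes with the smallest p in NEC against control in flox and up to 2 in each genotype comparison, of which the report names some. It also adds the 3 genes, other than predicted gene models, nearest in pattern to Fkbp5, Tsc22d3 and Sgk1. Alternatives were the pseudocount (0.1), no filter, a mean FPKM of at least 5, no trend, quantile normalization, deposited FPKM or equal totals of reads across tables, a 4-group fit, limma-voom on recovered reads, the replicate number as a block and leaving out each library. Where control tissue was compared, the ranges also include the fit without both control libraries numbered 3, added after the data were seen.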

Additional observations from a re-analysis of the deposited data

How the results depend on the processing

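Between CKO and flox in control, the 1 gene called among all genes became 0 with no filter, 760 with a mean FPKM of at least 5, 734 in limma-voom, 2085 in the 4-group fit, 1345 without both control libraries numbered 3 and 0 to 830 on leaving out a library; the members called, 0, became 2 in the 4-group fit, 3 without both libraries numbered 3 and 0 to 2 on leaving out a library. In NEC between genotypes, leaving out a library gave 0 to 1 genes. NEC against control with a mean FPKM of at least 5 called 3911 genes in CKO (6312 as reported) and 4785 in flox (7857 as reported), fewer genes being tested. In CKO the 5 members called became 9 with equal totals and 3 to 7 on leaving out a library. The 114 genes called in the interaction became 6 with no filter, 354 with a mean FPKM of at least 5, 5 with no trend, 245 with quantile normalization, 181 on deposited FPKM, 507 without both libraries numbered 3 and 0 to 529 on leaving out a library (529 without the third flox control library, 286 without the third CKO control library, 44 without the third CKO NEC library and 0 to 2 without any other), and the 0 members became 2 without both libraries and 0 to 2 on leaving out a library. Where a setting changed which genes passed, the cause was not tested.

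Directions turned for small differences. Between CKO and flox in control, Per1 was -0.084 without both libraries numbered 3 and -0.22 to 0.26 on leaving out a library, Ddit4 -0.013 to 0.32 and Cebpd -0.24 to 0.13, with 0.0012 for Cebpd under quantile normalization. Tsc22d3 in flox NEC ran from -0.064 to 0.22 on leaving out a library. The Cebpd interaction was 0.0024 with equal totals and -0.24 to 0.14 on leaving out a library.

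Same-numbered libraries did not deviate together in every pair (r from -0.12 to 0.36), so the numbers were not taken to pair samples. The highest r, 0.36 over all genes tested, was that of the third CKO control library with the third flox control library. With the replicate number as a block, between CKO and flox in control 903 genes passed and 1 member, Sgk1 (0.88, limma adjusted p = 0.0451, against a range of 0.0403 to 0.839 over its alternatives). The block also brought Sgk1 in CKO (1.23, limma adjusted p = 0.038) and Cebpd in flox (0.54, limma adjusted p = 0.0414) past the threshold in NEC against control. Depth limits Zbtb16 most, with 5 to 47 reads in control libraries.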

Other observations

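The Period genes of the clock did not move together in NEC, and were chosen here after their values were seen. Per2 averaged 14.3 ± 1.5 rescaled FPKM in CKO NEC against 21.6 ± 2.9 in CKO control, and 14.9 ± 2.4 in flox NEC against 23.5 ± 3.2 in flox control (SD, n = 3 each). It fell by 0.56 log2 in CKO tissue (limma adjusted p = 0.0109) and by 0.63 log2 in flox tissue (limma adjusted p = 0.00437), where Per1 rose in both. The fall of Per2 in CKO did not pass with equal totals (-0.25, limma adjusted p = 0.17) or quantile normalization (-0.37, limma adjusted p = 0.0631), its adjusted p running from 0.00812 to 0.17 over the alternatives. Per3 rose by 1.23 ± 0.16 log2 in CKO tissue (limma adjusted p = 0.000236) and 0.82 ± 0.16 log2 in flox tissue (limma adjusted p = 0.00125). Anxa1, another anti-inflammatory target of the hormone, averaged 17.1 ± 3.1 in CKO NEC against 7.84 ± 1.37 in CKO control and 18.2 ± 3.1 in flox NEC against 8.72 ± 3.02 in flox control. It rose by 1.03 ± 0.22 log2 in CKO tissue (limma adjusted p = 0.00329) and 1.01 ± 0.22 log2 in flox tissue (limma adjusted p = 0.00241).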
